A study of Mus musculus with 2 samples.

Results

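The 5-hydroxymethylcytosine (5hmC) peaks at 5 genes of culture senescence and the p53 pathway, Cdkn2a, Cdkn2b, Cdkn1a, Trp53 and Mdm2, were compared between mouse embryonic fibroblasts (MEFs) at passage 0 and at passage 5. The peaks were those sharing at least 1 base with 4 windows of the mm9 genome set around the genes: chr4:88910000-88970000 for the neighbours Cdkn2a and Cdkn2b, chr17:29217000-29248000 for Cdkn1a, chr11:69384000-69416000 for Trp53 and chr10:117115000-117160000 for Mdm2. At passage 0 the windows held 7 of the 60157 peaks in the list, and at passage 5 they held 0 of 6726. Each group was a single library of C57BL/6 fibroblasts, taken from embryos 13.5 days after conception and grown in high glucose medium with fetal calf serum, harvested without passaging or after 5 passages. How many embryos went into each culture, and at what oxygen level the cells grew, is not stated in the labels. 5hmC is the product of the TET enzymes from methylated cytosine, and the assay pulled down sonicated DNA fragments that carry it, so each value belongs to a stretch of DNA and not to a base. The peak lists hold no expression values, so neither the fibroblast identity of the cells nor their senescence was checked against marker genes. In bulk DNA, fewer cells carrying the mark and less mark per cell cannot be told apart.

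Fibroblasts from mouse embryos divide a limited number of times in ordinary culture and then stop, an arrest that depends on p19Arf and p53. Cdkn2a encodes p16Ink4a, an inhibitor of the cyclin D kinases, and, from another first exon and reading frame, p19Arf, which binds Mdm2. Cdkn2b encodes p15Ink4b, a close relative of p16Ink4a. Mdm2 is the ubiquitin ligase that marks the p53 protein, the product of Trp53, for degradation, and p53 in turn switches on Mdm2 and Cdkn1a. Cdkn1a encodes p21, an inhibitor of cyclin-dependent kinases. In mammalian DNA, 5hmC lies mainly where a C is followed by a G (CpG). It is usually low over CpG-rich promoters and higher in the bodies of active genes and at enhancers.

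The windows of the cyclin-dependent kinase inhibitors held no peak in either list, so the DNA upstream of their transcription starts is shown to give its CpG content. The sequences are RefSeq's for build GRCm38.p6, which is not the build of the peaks, and their positions cannot be set beside peak positions. Each is the 250 bases before a start, 5′ to 3′ on the strand of the gene. Capitals mark CpG, except at the upstream Cdkn1a start, where they mark a match to a p53 pattern.

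Cdkn2a upstream start (chr4:89294620-89294869, minus strand): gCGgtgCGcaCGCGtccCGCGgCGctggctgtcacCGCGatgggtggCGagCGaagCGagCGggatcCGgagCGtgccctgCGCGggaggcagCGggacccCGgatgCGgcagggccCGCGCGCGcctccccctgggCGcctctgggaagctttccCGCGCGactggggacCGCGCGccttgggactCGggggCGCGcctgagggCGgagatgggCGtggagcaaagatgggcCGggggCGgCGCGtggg

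Cdkn2a downstream start (chr4:89282193-89282442, minus strand): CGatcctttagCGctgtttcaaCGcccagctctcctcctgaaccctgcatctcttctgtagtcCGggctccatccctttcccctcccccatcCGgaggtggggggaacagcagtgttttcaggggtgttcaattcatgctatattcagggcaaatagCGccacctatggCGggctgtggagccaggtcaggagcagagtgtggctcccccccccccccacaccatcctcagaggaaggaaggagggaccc

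Cdkn2b (chr4:89311033-89311282, minus strand): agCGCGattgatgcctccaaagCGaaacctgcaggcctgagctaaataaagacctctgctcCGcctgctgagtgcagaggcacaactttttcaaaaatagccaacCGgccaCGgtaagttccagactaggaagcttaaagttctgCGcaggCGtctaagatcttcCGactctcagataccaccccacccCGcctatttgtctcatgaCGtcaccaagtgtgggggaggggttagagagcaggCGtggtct

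Cdkn1a upstream start (chr17:29090729-29090978, plus strand): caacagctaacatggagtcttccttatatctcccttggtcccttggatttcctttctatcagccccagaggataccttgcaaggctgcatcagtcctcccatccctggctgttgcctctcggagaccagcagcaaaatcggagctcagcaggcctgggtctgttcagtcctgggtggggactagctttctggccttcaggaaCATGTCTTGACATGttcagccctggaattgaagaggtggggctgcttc

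Cdkn1a downstream start (chr17:29093519-29093768, plus strand): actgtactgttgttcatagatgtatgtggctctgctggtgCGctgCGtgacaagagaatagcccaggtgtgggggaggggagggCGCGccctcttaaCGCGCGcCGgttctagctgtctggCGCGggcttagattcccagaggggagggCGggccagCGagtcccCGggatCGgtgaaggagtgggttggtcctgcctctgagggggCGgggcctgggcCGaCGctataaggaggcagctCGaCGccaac

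All 5 genes had an entry, with 7 starts in all. The upstream Cdkn2a start, that of the p19Arf transcript, had 40 CpGs in its 250 bases, a number reached by 1.31% of the 32851 promoters in the table. The downstream Cdkn2a start, that of p16Ink4a, had 7 CpGs, close to the median of 6 over all promoters. Cdkn2b had 12 CpGs, the downstream Cdkn1a start 19 and the upstream Cdkn1a start 2. Of the genes whose windows held peaks at passage 0, Mdm2 had 29 CpGs, reached by 6.78% of promoters, and Trp53 had 9, reached by 40.3%. Among the genes whose windows held no peak, CpG numbers upstream of the starts ran from 2 to 40. Those of Mdm2 and Trp53, 29 and 9, fell inside that range. Whether CpG content bears on the presence of peaks was not tested. The upstream Cdkn1a start also held 1 match to CATGNNNNNNCATG, which reads the same on both strands and is the core of a p53 response element with its repeats joined without a spacer. The match ended 34 bases before the start. The pattern occurred in 0.490% of all promoters of this length and at none of the other 6 starts, where longer or more variable sites were not searched for. Only the 250 bases before each start were searched, so sites elsewhere in or near a gene would be missed. A match is only a description of the sequence.

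The lists themselves set what a count in a window can show. Peak numbers in the 19 autosomes were 25.1 per Mb at passage 0 and 2.80 per Mb at passage 5, so passage 5 had 11.2% as many as passage 0. The read depth of both libraries is unknown, and it bears on the number of peaks. At the autosomal densities the 4 windows, 168 kb in all, would hold 4.21 peaks at passage 0 and 0.470 at passage 5. The count of 0 at passage 5 allows a density of up to 22.0 peaks per Mb, the upper end of its exact 95% interval. That is above the autosomal level, so a lower density in the windows than elsewhere was not detectable. Intervals below are exact 95% intervals that cover counting error only. A single library stood for each passage, so replicate error is unknown and no test was made between passages.

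The Cdkn2a and Cdkn2b window, which holds the kinase inhibitors p16Ink4a and p15Ink4b together with p19Arf, had no 5hmC peak at passage 0 and none at passage 5. A window of this length is often empty: 53% of 60 kb stretches of the autosomes had no passage 0 peak, and 87.2% had no passage 5 peak. The pair of genes spans 36.6 kb in RefSeq, shorter than the window. The nearest passage 0 peak lay 44.6 kb beyond the upper edge of the window, at bases 89014589 to 89015428, with a score of 92.9. Scores come from the authors' lists and serve here only to rank peaks within 1 list. On the lower side the nearest passage 0 peak lay 93.9 kb away, at bases 88815233 to 88816143, with a score of 156. A passage 5 peak inside it, at bases 88815466 to 88816022 with a score of 117, was the nearest one at passage 5, at 94.0 kb.

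The window therefore sat in a stretch of 198 kb without any passage 0 peak, from base 88816143 to base 89014589. At passage 5 the stretch without a peak was 291 kb. Only 2.84% of the intervals between neighbouring autosomal peaks at passage 0 were as long as 198 kb, but such long intervals hold 47.3% of the autosomal length, so a place in one is common. The surroundings of this stretch were rich in peaks. The 250 kb on each side held 32 passage 0 peaks, 11 on the lower side and 21 on the upper side, a density of 64.0 per Mb (43.8 to 90.3). Window and flanks together reached a number found in 13.7% of autosomal stretches of 560 kb, whose median was 8 peaks. Of the 586 stretches with at least 32 passage 0 peaks, 36 had an empty central 60 kb (6.14%), and 7 had a central interval of at least 198 kb (1.19%). Their peaks were counted with the centre included, so these shares can understate how often flanks this rich surround an empty centre. This is a description of one locus. The upper bound for the window itself, 61.5 peaks per Mb, overlaps the interval of its flanks.

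**Figure D1:**
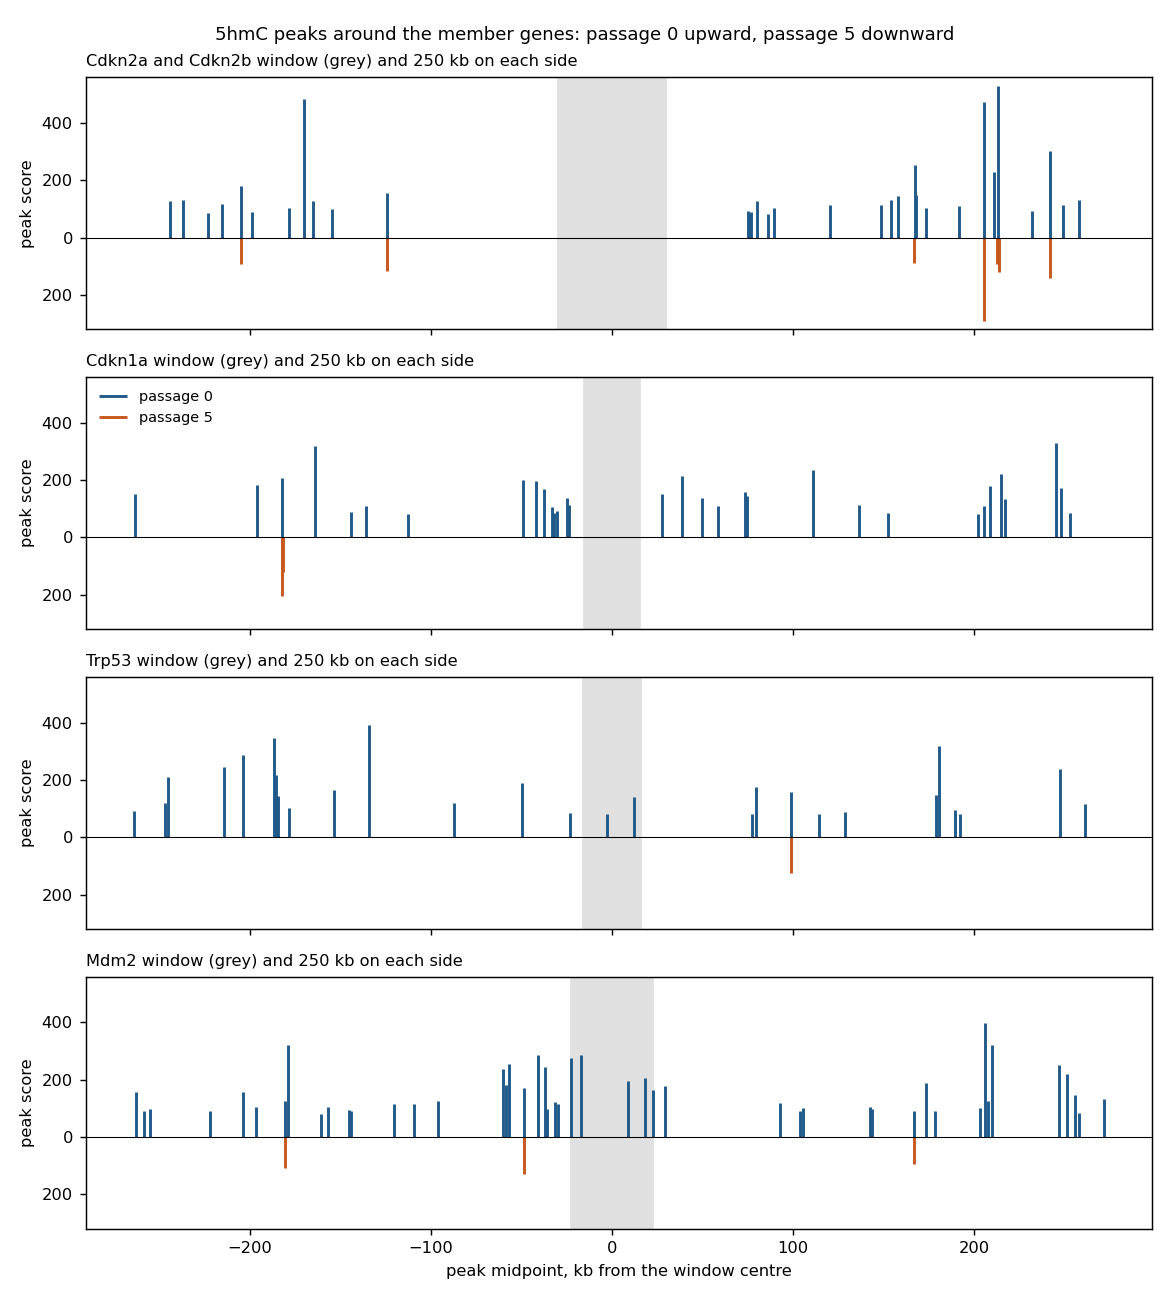
Peaks of passage 0 (blue, upward) and passage 5 (orange, downward) by distance of the peak midpoint from the window centre, in kb, with the authors' score as the height of each line and the window in grey. The Cdkn2a and Cdkn2b and the Cdkn1a windows hold no line, the Trp53 window holds 2 and the Mdm2 window 5, all at passage 0.

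The flanks of Cdkn2a and Cdkn2b held 7 passage 5 peaks, against 1 to 3 around the other genes, a difference that was not tested. At least 7 were present in 3.84% of autosomal stretches of 560 kb, whose median was 1. All 7 shared bases with passage 0 peaks, 100% (59.0% to 100%), an interval that includes the 69.9% of the whole passage 5 list. RefSeq lists Mtap, which encodes a methionine salvage enzyme, and Dmrta1, which encodes a DM domain protein, as the next coding genes on either side, but without mm9 gene positions no peak was assigned to a gene. The highest score in these flanks at passage 0 was 530, at bases 89152293 to 89154330. This peak was 2038 bases wide and contained 2 passage 5 peaks, at bases 89152399 to 89152958 (score 91.0) and 89153361 to 89154045 (score 120). The highest score at passage 5 was 290, at bases 89145189 to 89146095, inside a passage 0 peak with a score of 473. These passage 5 peaks lay 175 kb to 183 kb beyond the window. Of the 32 passage 0 peaks, 6 had a passage 5 peak, or 18.8% (7.21% to 36.4%), against 7.63% of the whole passage 0 list. The lower bound of this interval is below the share of the list.

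The Cdkn1a window, around the gene for p21, likewise held no peak at either passage. Of the autosomal stretches of 31 kb, 64.8% had no passage 0 peak and 92.7% had no passage 5 peak. At passage 0 peaks came closer here than at Cdkn2a and Cdkn2b, while at passage 5 the nearest lay farther away, at 166 kb against 94.0 kb. The nearest passage 0 peak lay 7.43 kb below the window, at bases 29208638 to 29209573, and scored 111. The nearest on the upper side lay 11.7 kb away, at bases 29259700 to 29260383, and scored 150. The interval without a passage 0 peak was 50.1 kb, a length reached by 14.4% of autosomal intervals, which hold 74.3% of the autosomal length. With the window widened by 10 kb on each side, it held 2 passage 0 peaks, so its empty state at passage 0 depends on where the borders were set. Srsf3, a splicing factor gene, and Rab44, which encodes a GTPase, are the neighbouring coding genes in RefSeq.

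The flanks of Cdkn1a held as many passage 0 peaks as those of Cdkn2a and Cdkn2b, and 2 passage 5 peaks, a number reached by 34.4% of autosomal stretches of 531 kb. The 32 passage 0 peaks lay 15 below and 17 above the window, with scores from 81.3 to 330. The 2 passage 5 peaks lay side by side on the lower side, at bases 29050002 to 29050780 (score 205) and 29050878 to 29051208 (score 119). The first shared bases with a passage 0 peak scored 207, and the second, the nearest passage 5 peak to the window, shared none. On the upper side there was no passage 5 peak until 323 kb from the window, and the whole stretch without one was 520 kb. Intervals at least this long hold 70.4% of the autosomal length at passage 5. Of the 32 passage 0 peaks, 1 had a passage 5 peak, 3.12% (0.0791% to 16.2%), an interval that includes the 7.63% of the list. The highest-scoring passage 0 peak of the flanks, at bases 29476715 to 29478890 with a score of 330, had none within 92.6 kb.

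**Figure D2:**
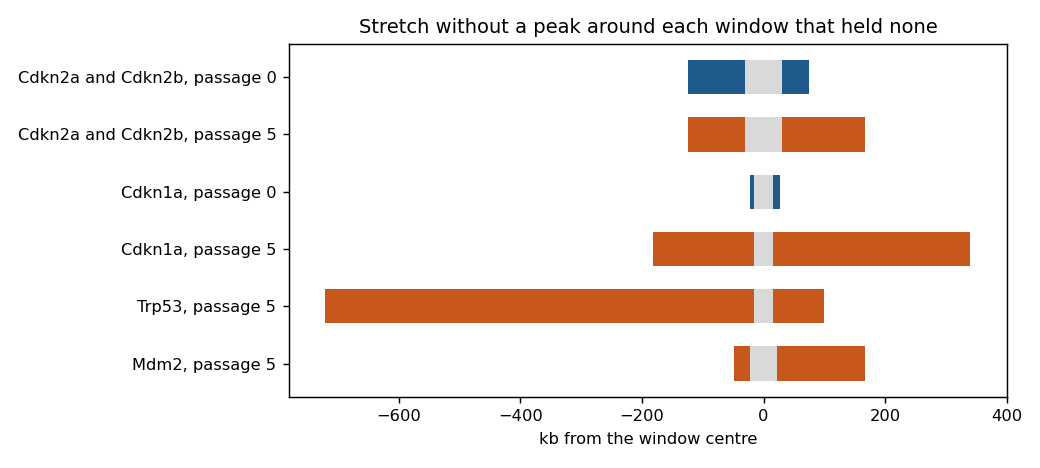
Length of the stretch without a peak around each window that held none, in kb from the window centre, for passage 0 (blue) and passage 5 (orange), with the window in light grey. The shortest is that of Cdkn1a at passage 0, 50.1 kb, and the longest that of Trp53 at passage 5, 820 kb.

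The Trp53 window held 2 passage 0 peaks and no passage 5 peak. The first, at bases 69397167 to 69397785, was 619 bases wide and had a score of 81.5, near the lowest score of the list, 80, and 2.74% of passage 0 peaks scored as low or lower. The second, at bases 69411939 to 69412902, was 964 bases wide with a score of 141, above the list's median of 129. Together they covered 1583 bases, or 4.95% of the window, against 2.37% of the autosomes. At least 2 passage 0 peaks were present in 19.5% of autosomal stretches of 32 kb, so this count is not unusual. Trp53 spans 11.5 kb in RefSeq, between Wrap53, whose product binds telomerase RNA, and Atp1b2, a sodium pump subunit gene. The window is wider than Trp53, and which of the peaks lies within the gene was not determined.

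The nearest passage 5 peak to Trp53 was 82.9 kb above the window, at bases 69498916 to 69499388, with a score of 125, inside a passage 0 peak scored 157. On the lower side the nearest was 705 kb away. The passage 5 interval that contained the window, 820 kb, had a length reached by 10.5% of the autosomal intervals at passage 5, and such intervals hold 58.9% of the autosomal length. Stretches of 32 kb without a passage 5 peak made up 92.4% of the autosomes, and 74.1% of those with at least 2 passage 0 peaks. The flanks held 25 passage 0 peaks, 14 below and 11 above, and the passage 5 peak just named was their only one. At least 1 was present in 53.5% of autosomal stretches of 532 kb. The share of flanking passage 0 peaks with a passage 5 peak was 4.0% (0.101% to 20.4%), and the interval includes the 7.63% of the list. The highest passage 0 score, 391 at bases 69265108 to 69267193, belonged to a peak without a partner.

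The Mdm2 window, around the gene for the ligase that degrades p53, held the most peaks of the 4 windows. It had 5 at passage 0 and none at passage 5. The passage 0 peaks lay at bases 117114503 to 117115294 (score 275), 117119697 to 117120868 (287), 117145737 to 117146739 (196), 117155101 to 117156726 (206) and 117159886 to 117160914 (166). All 5 scored above the median of the passage 0 list, and the highest was at or above 89.7% of its peaks. The first and the last reached past the borders of the window, with 295 and 115 bases inside, so the count is 3 when the midpoint of a peak must lie inside. The next peak outside, at bases 117166183 to 117167142 with a score of 179, lay 6.18 kb above the window. The peaks covered 9.36% of the window, the largest share of the 4. Their density was 111 per Mb (36.1 to 259), and 7.01% of autosomal stretches of 45 kb held at least 5 passage 0 peaks.

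Peaks also crowded around the Mdm2 window at passage 0. The flanks held 42, with 24 below and 18 above, or 84.0 per Mb (60.5 to 114). Window and flanks together had 47, a number reached by 5.02% of autosomal stretches of 545 kb. Of the 220 stretches that reached it, 49.5% had at least 5 peaks in their central 45 kb. Mdm2 spans 21.9 kb in RefSeq and has Cpm, a carboxypeptidase gene, and Slc35e3, a solute carrier gene, as its coding neighbours, so the window can hold parts of more than 1 gene.

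At passage 5 the Mdm2 flanks held 3 peaks, a number reached by 23.1% of autosomal stretches of 545 kb. Each shared bases with a passage 0 peak, as did 69.9% of the whole passage 5 list. The nearest lay 25.5 kb below the window, at bases 117088749 to 117089457, with a score of 130. The passage 0 peak there had a score of 172 and ranked 13 of 42 in the flanks, and the passage 0 peaks under the other passage 5 peaks ranked 19 and 35. Of the 42 passage 0 peaks in the flanks, 3 had a passage 5 peak, or 7.14%. The interval of this share includes the 7.63% of the whole passage 0 list. Of the 5 window peaks, 4 had higher passage 0 scores than the peak scored 172, and none of the 5 had a passage 5 peak. Most passage 0 peaks of the list had none, so this alone does not set the window peaks apart. The highest-scoring passage 0 peak of the flanks, at bases 117342492 to 117344261 with a score of 398, had no partner either. Of autosomal stretches of 45 kb, 89.9% had no passage 5 peak, and among those with at least 5 passage 0 peaks the share was 54.6%. More than 50% of the stretches this rich at passage 0 were thus empty at passage 5, as the Mdm2 window was.

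**Figure D3:**
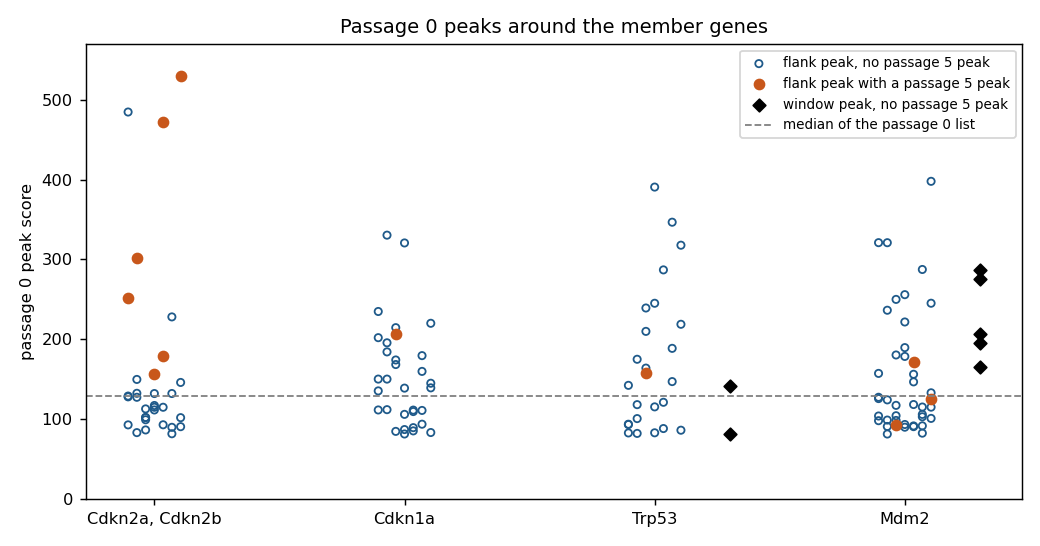
Passage 0 score of each peak in the flanks (circles, filled orange where a passage 5 peak shares bases with it) and in the windows (black diamonds), by gene, with the median of the passage 0 list as a dashed line. The 6 orange points at Cdkn2a and Cdkn2b reach 530, while the 3 at Mdm2 lie at or below 172, under all but 1 of the 5 window peaks.

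Over the 4 windows together, passage 0 density was 41.7 peaks per Mb (16.8 to 85.8), an interval that includes the autosomal 25.1. Peaks that only reach into a window raise this value. With the midpoint of a peak required inside, the windows held 5 passage 0 peaks instead of 7, against 4.21 at the autosomal density. None of the 7 passage 0 peaks had a passage 5 peak. The exact interval of that share runs from 0% to 41.0% and includes the 7.63% of the whole list. The flanks, 2.0 Mb in all, held 131 passage 0 peaks, 65.5 per Mb (54.8 to 77.7), above the autosomal density by more than counting error. The flanks of each of the 4 windows were above it as well, with the lowest bound, 32.4 per Mb, at Trp53. Flank density at passage 5 was 6.50 per Mb (3.46 to 11.1), from 13 peaks, also above its autosomal density of 2.80 by more than counting error. Peaks cluster along the genome, so these intervals are too narrow as a measure of how often such densities occur. The autosomal density was also not matched to the flanks for gene content. Whether the excess is particular to these loci was therefore not tested. Passage 5 flank density was 14 per Mb (5.63 to 28.8) at Cdkn2a and Cdkn2b. It was 4 (0.484 to 14.4) at Cdkn1a, 2 (0.0506 to 11.1) at Trp53 and 6 (1.24 to 17.5) at Mdm2. Of these intervals, only that of Cdkn2a and Cdkn2b, which gave 7 of the 13 peaks, lay above 2.80.

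Of the 131 passage 0 peaks in the flanks, 11 had a passage 5 peak, 8.40% (4.27% to 14.5%), close to the 7.63% of the list. Their median score was 179, against 123 for those without, and the medians over the whole list were 214 and 125. In the other direction, 12 of the 13 passage 5 peaks shared bases with a passage 0 peak, 92.3% (64.0% to 99.8%), and in the whole passage 5 list 69.9% did. The lower bound lies below the share of the list.

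**Figure D4:**
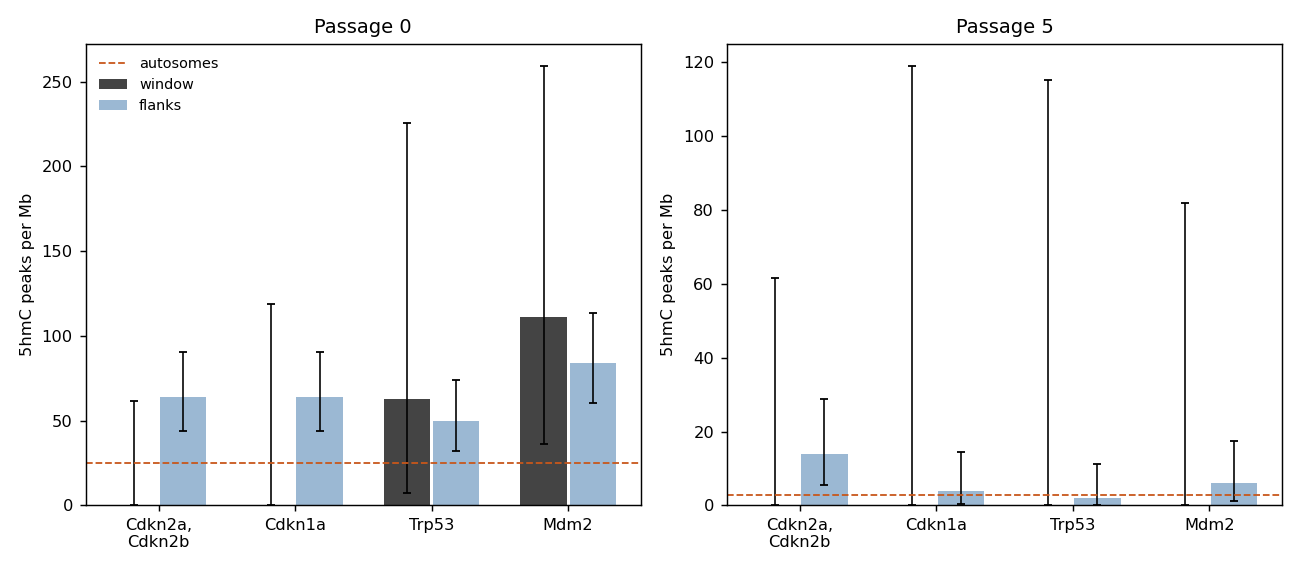
5hmC peaks per Mb in each window (dark bars) and its flanks (light bars) at passage 0 and passage 5, on separate scales, with exact 95% counting intervals and the autosomal density as a dashed line. At passage 0 the flanks of all 4 windows stand above the dashed line at 25.1 per Mb, while windows without a bar had 0 peaks.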

How the data were processed

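5hmC was measured in 2 MEF libraries, and for each the authors deposited a list of peaks with positions and scores. Per the submitters' processing notes, the tools were Bowtie 0.12.7, CASAVA 1.8 and MACS 1.4.1 and the build mm9, without roles. Threshold, duplicate handling and any input control are not stated there. The score deposited by the authors has no name in the lists and was used only within a list.

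Peak starts were read as counted from 0 and are printed counted from 1. A peak belonged to a window when they shared at least 1 base. Peaks of the window were left out of its flanks, which were 250 kb on each side. Background shares came from cutting the 19 autosomes, between the first and last peak of both lists, into adjoining stretches of each window's length. Poisson and Clopper-Pearson intervals are exact. The counting functions were tested on simulated lists. The rule for what the text names covered the members, every peak in their windows, the highest-scoring flanking peak of each list and the nearest peak to an empty window. The 6 passage 0 sites with partners at Cdkn2a and Cdkn2b and the ranks at Mdm2 were described after their values were seen, as were the shares among peak-rich stretches. The members and windows were chosen with earlier results of these data known. A planned count over further p53 pathway genes was not run, because no mm9 gene positions were used here. Alternatives are given in the closing section. Python 3.11.15, numpy 2.4.6, pandas 2.3.3, scipy 1.17.1 and matplotlib 3.10.9 were used.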

Additional observations from a re-analysis of the deposited data

How the results depend on the processing

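Counts, densities and distances were taken as moved when they differed from the reported value by more than 1.5 times, and shares when they left its counting interval. Covered bases had no interval of their own. Their proportional change was set against the counting interval of the 7 window peaks, relative to 7, which is a looser limit. Of 42 recomputed values, 38 stayed within these limits and 4 moved further. With the windows widened by 10 kb on each side they held 13 passage 0 peaks instead of 7, and their density went from 41.7 to 52.4 per Mb. The added peaks were 2 at Cdkn1a, 1 at Trp53 and 3 at Mdm2, and the Cdkn2a and Cdkn2b window still held 0. With only the 50% of peaks that scored highest in each list, flank density was 31.5 per Mb at passage 0, against 12.5 on the autosomes, and 4 per Mb at passage 5, since fewer peaks enter by construction. In flanks of 100 kb the passage 5 density was 3.75 per Mb, against 2.80 on the autosomes, and few peaks lay close to the windows. The windows held 0 passage 5 peaks when widened by 10 kb on each side. Starting from 0, the other alternatives for that count could only return 0. Covered bases at passage 5 follow from that count. The share of window peaks with a partner could also only stay 0 under the score limits and the stricter overlap. All these values fixed in advance are among the 38. No paired analysis was possible because each passage had 1 library and no test was made. There was no replicate to leave out. Unknown depth limits every comparison between the passages.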
